A study of Arabidopsis thaliana with 30 samples.

Results

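Light-grown seedlings (48 h SL) were set against the dry seeds they grew from (0 h), to describe which gene functions and gene families the transcriptome of the young plant had gained and which functions of the seed it had lost. All samples were whole seeds or whole seedlings of Arabidopsis thaliana Col-0 wild type, with no transgene and no treatment other than the germination regime. The 48 h SL group (n = 3 libraries) had been sown on MS medium with sucrose. It was kept for 48 h in cold and darkness (stratification, S) and then for 48 h in continuous light (SL). The 0 h group (n = 3 libraries) was dry seed that had been stored in darkness after harvest and had met no water. Only the 48 h SL group had met sucrose, and its part in the differences was not tested. Both groups came from 1 batch of plants, so the p-values measure the spread between samples of the same seed lot. The comparison used 6 of the 30 libraries of a time course with 10 time points. The other 24 libraries entered the choice of genes tested, the scaling factors, the shared estimate of the spread and the description of timing. Some of them also gave levels at harvest and at other time points. Of the 38217 rows of the gene count table, 23222 had enough reads to be tested, and each was compared between 48 h SL and 0 h. In whole organisms, fewer cells of a type and less RNA per cell cannot be told apart.

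A dry seed holds an embryo packed with storage protein and oil, a living endosperm layer and a dead coat, and its stored mRNA was made while the seed matured and dried. Storage albumins and globulins, oleosins that coat oil bodies, and late embryogenesis abundant (LEA) proteins that protect cells from drying are known products of this phase, under abscisic acid and the factors ABI3, FUS3, LEC2 and ABI5. Germination in light hands over to reserve mobilisation, cell elongation, root hairs, vascular tissue, stomata and chloroplasts.

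The 48 h SL libraries held 67798812, 66517075 and 76294780 reads in genes, and the 0 h libraries 30593189, 28020621 and 41462745, within a series range of 8234345 to 76294780. The 7 embryo and storage marker genes were lower in the seedling (7 of 7), at 0.367%, 0.337% and 0.372% of their 0 h mean. Markers of root hair (6 of 6), xylem (7 of 7), mesophyll (5 of 5), stomatal lineage (6 of 6), phloem (4 of 4), root cap (3 of 3) and guard cell (2 of 2) were all higher. These lists went with the tissue labels, against 45.8% higher and 33.3% lower of all genes tested. Other lists were less uniform. Shoot meristem markers were higher in 2 of 3 cases. Of 5 tested seed coat markers 2 were higher and 2 lower, and their share of reads was 0.00534% at 48 h SL and 0.000301% at 0 h. Some seedling transcripts were found at a low level in dry seed. The summed mesophyll markers stood at 0.731%, 0.695% and 0.320% of their 48 h SL mean in 0 h replicates 1, 2 and 3, and all 67 genes of at least 1000 CPM (reads per 1000000 of the library) at 48 h SL had reads in every 0 h library, at no less than 0.136% of the seedling mean. Replicate 2 of the 1 h S time point stood apart, with root hair markers at 7.65%, xylem markers at 7.11% and mesophyll markers at 6.94% of the 48 h SL mean, against 0.146% to 1.1% in the libraries of H (frozen at harvest), 0 h and 12 h S. The part of these reads in the results was not tested. Without 1 h S replicate 2 alone 10650 genes were called higher and 8075 lower.

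The transcriptome of the seedling differed from that of the dry seed in most genes tested. With edgeR's quasi-likelihood test and a Benjamini-Hochberg adjusted p under 0.01, 10642 genes (45.8% of those tested) were higher and 7736 (33.3%) were lower at 48 h SL than at 0 h, and the libraries of the groups did not overlap for 21381 genes (92.1%). Of the 18378 calls, 87.1% were at least 2-fold, and 5801 genes were at least 8-fold higher and 2357 at least 8-fold lower. The counts of list members called higher or lower below are to be read against 45.8% and 33.3%. Genes called higher took 66.1% of the reads at 48 h SL and 5.75% at 0 h, whereas genes called lower took 19.2% at 48 h SL and 87.8% at 0 h. The dry seed also spent its reads on fewer genes. The 10 genes with the most reads took 4.82%, 5.0% and 4.93% of the reads at 48 h SL and 24.2%, 24.3% and 25.2% at 0 h, and 50% of the reads came from 1158, 1127 and 1146 genes at 48 h SL and from 84, 82 and 73 genes at 0 h.

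Fold changes below are log2 values of 48 h SL over 0 h with their standard error, scaled by the trimmed mean of M-values (TMM), which sets the bulk of genes equal between libraries. Their median over all genes tested was 0.44. Scaling by library size alone moved it to 1.66, a shift of 1.22 for the median gene, called 14736 genes higher and 4135 lower, and took the share of calls that were higher to 78.1%, against 57.9% with TMM. The call of 535 genes turned round between the scalings. A CPM value is a share of the library and carries no such scaling, so a gene with equal CPM at both time points has a fold change below 0 here. Values given as at least N-fold are ratios of CPM against 3 reads per library and are not TMM-scaled either, so on the TMM scale the shift of 1.22 (log2) would make those of higher genes smaller and those of lower genes larger.

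**Figure D1:**
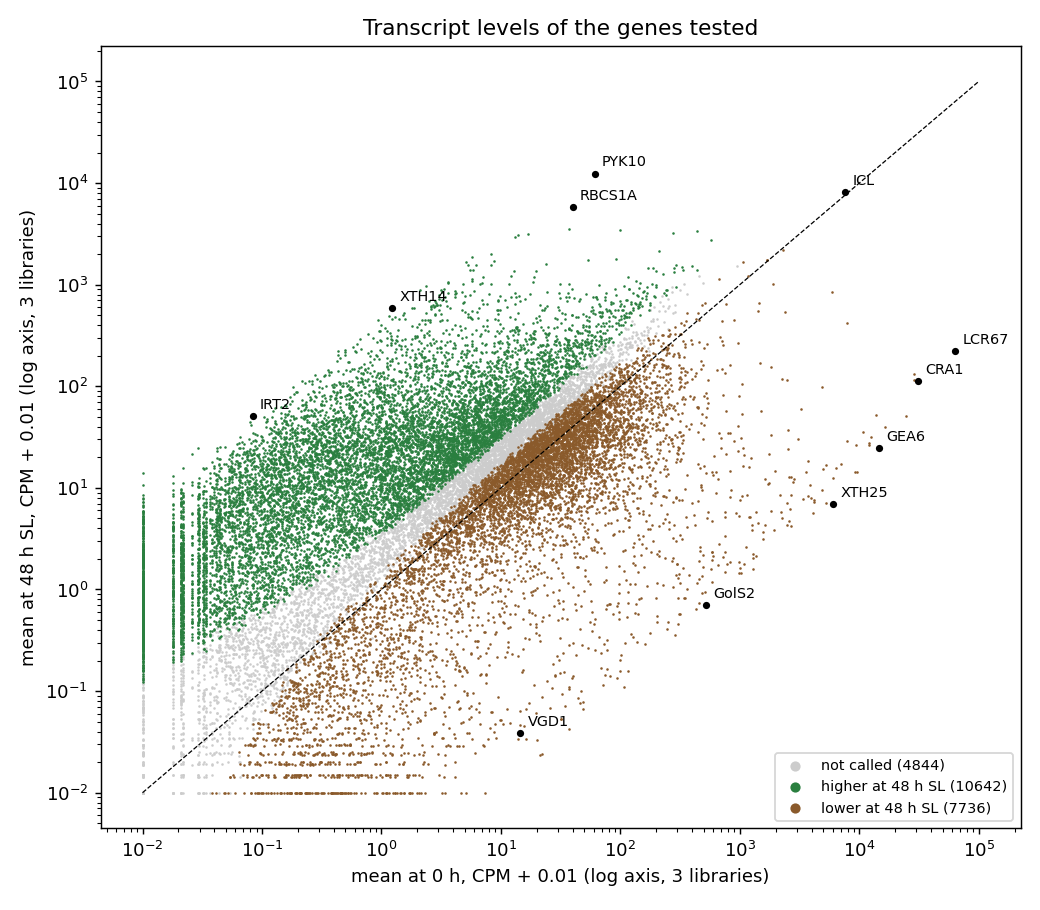
Mean level of each gene tested at 48 h SL (y axis) and at 0 h (x axis), in CPM plus 0.01 on log axes, as means of 3 libraries each. Green points are the 10642 genes called higher at 48 h SL, brown points the 7736 called lower and grey points the 4844 not called. The dashed line marks equal CPM. The grey band runs above the line because TMM scaling does not follow library size. LCR67, CRA1 and GEA6 lie far to the right and low, and PYK10 and RBCS1A lie high on the left.

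Storage protein genes lost almost all of their share of the transcriptome. All 9 members of the storage list were called lower, at a median of -9.19 against 0.44 over all genes, and together they took 0.0463% ± 0.00153 of reads at 48 h SL and 11.9% ± 0.0521 at 0 h (SD, n = 3 each). CRA1, a cruciferin (12S globulin), had 102, 109 and 128 CPM at 48 h SL, against 30473, 31657 and 30971 CPM at 0 h (-9.33 ± 0.43, adjusted p = 9.41e-17). SESA5, a 2S albumin, had 117, 120 and 109 CPM at 48 h SL, against 28617, 28208 and 29511 CPM at 0 h (-9.19 ± 0.55). SESA3, another 2S albumin, had 40.3, 35.4 and 42.2 CPM in seedlings, against 16725, 16122 and 16452 CPM in dry seeds (-9.93 ± 0.61). In each of them all seedling libraries were more than 100 times below all dry seed libraries. The 2S albumin genes SESA1 to SESA4 are near-identical neighbours, so reads may have been split among them. The promoters of CRA1 and SESA3 are shown because they carry the RY core CATGCA more than once. That element is known to be read by the B3 factors ABI3, FUS3 and LEC2. They run from 250 bases before to 50 bases after the annotated start, on TAIR10.1, and capitals mark matches on either strand to the motif letters searched (RY core CATGCA, I-box core GATAAG, G-box CACGTG). CRA1 lies at chr5:17758287-17758586 on the minus strand, with 2 RY cores and 1 I-box core, and SESA3 at chr4:13611546-13611845 on the plus strand, with 7 RY core matches and 1 G-box. Matches on both strands were counted, and several of the SESA3 matches overlap in 1 stretch.
CRA1: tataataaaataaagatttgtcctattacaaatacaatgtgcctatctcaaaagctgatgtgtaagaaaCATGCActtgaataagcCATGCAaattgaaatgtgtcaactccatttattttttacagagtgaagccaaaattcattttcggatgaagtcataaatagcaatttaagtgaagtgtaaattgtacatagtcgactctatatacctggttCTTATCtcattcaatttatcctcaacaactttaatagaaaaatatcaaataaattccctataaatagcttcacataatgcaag
SESA3: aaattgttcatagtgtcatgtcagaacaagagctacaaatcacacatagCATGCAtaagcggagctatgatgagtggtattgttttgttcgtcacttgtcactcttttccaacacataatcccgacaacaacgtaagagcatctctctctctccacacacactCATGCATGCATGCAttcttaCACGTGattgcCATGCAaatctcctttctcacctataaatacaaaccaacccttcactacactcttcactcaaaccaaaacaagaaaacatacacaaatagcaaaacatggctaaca

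The most abundant transcript of the dry seed per exon length was not a storage protein. LCR67, a plant defensin (a small cysteine-rich secreted peptide), had 264, 197 and 208 CPM at 48 h SL, against 61029, 61163 and 68610 CPM at 0 h (-9.39 ± 0.58). The defensin and thionin list took 0.0804% of reads in seedlings and 6.56% ± 0.439 in dry seeds, and LCR67 alone took 6.36% of the reads of dry seeds. Of the 44 tested members 14 rose and 21 fell, with a median of -1.0 that became 0.22 under library size. Other members went the opposite way. PDF2.5 was gained, with 7.91, 7.98 and 10.6 CPM at 48 h SL and at most 0.0357 CPM at 0 h, at least 95.4-fold higher in CPM, and the thionin THI2.2 was gained as well, at least 75.8-fold higher in CPM.

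**Figure D2:**
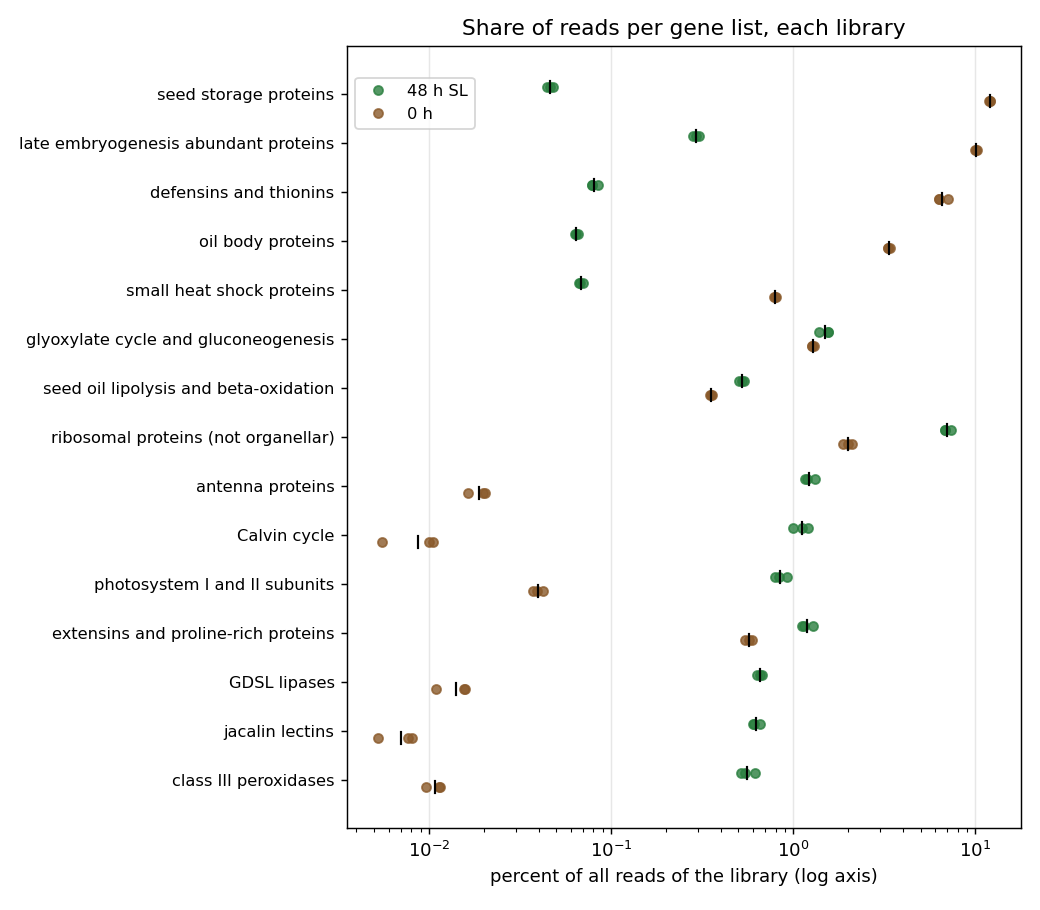
Percent of all reads taken by 15 gene lists (log x axis) in each library, green for 48 h SL and brown for 0 h. Points are the 3 libraries of a group and black ticks their means. Storage proteins stand near 0.0463% in seedlings and 11.9% in dry seeds, antenna proteins at 1.22% in seedlings and 0.0188% in dry seeds, and the glyoxylate cycle genes at 1.5% in seedlings and 1.28% in dry seeds.

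Genes for protection against drying fell with the storage genes. Of 55 tested LEA genes 37 fell and 15 rose (median -7.19), against 33.3% lower and 45.8% higher of all genes tested. The list took 0.292% of reads at 48 h SL and 10.1% at 0 h. GEA6, the group 1 LEA protein Em6, had 28.5, 23.1 and 21.8 CPM in seedlings, against 14234, 14855 and 15010 CPM in dry seeds (-10.46 ± 0.62). The dehydrin AT5G66400 had 60.8, 46.4 and 46.1 CPM in seedlings, against 24098, 24641 and 24461 CPM in dry seeds (-10.13 ± 0.62). Neither gene had overlapping groups. Not every gene of this annotation moved that way, as AT5G54370, a LEA-like protein, had 127, 148 and 136 CPM at 48 h SL and 0.556, 0.321 and 0.193 CPM at 0 h (7.40 ± 0.58). The promoter of GEA6, at chr2:16780319-16780618 on the minus strand of TAIR10.1, is shown for its abscisic acid response element, with capitals marking an ABRE core ACGTGTC, read on the reverse strand, and the G-box CACGTG that it overlaps.
GEA6: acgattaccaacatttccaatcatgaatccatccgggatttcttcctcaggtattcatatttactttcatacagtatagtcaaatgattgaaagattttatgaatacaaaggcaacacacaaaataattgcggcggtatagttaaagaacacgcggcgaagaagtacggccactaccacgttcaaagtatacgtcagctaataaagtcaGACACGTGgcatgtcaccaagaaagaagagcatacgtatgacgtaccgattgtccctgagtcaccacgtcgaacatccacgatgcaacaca

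Oil body genes followed. Of 19 tested members 15 fell and 4 rose (median -8.24), against 33.3% lower and 45.8% higher of all genes tested. The list took 0.0645% of reads at 48 h SL and 3.34% at 0 h. OLEO1, the main seed oleosin, had 38.6, 32.1 and 36.2 CPM in seedlings, against 11154, 10533 and 10758 CPM in dry seeds (-9.47 ± 0.49). HSD5, a steroleosin-type hydroxysteroid dehydrogenase, had 0.693, 0.451 and 0.537 CPM in seedlings, against 316, 307 and 305 CPM in dry seeds (-10.32 ± 0.50). Both were lower in every seedling library. Of the 4 that rose, only AT1G13930, annotated as oleosin-B3-like, was at least 8-fold higher. It had 357, 369 and 321 CPM at 48 h SL and 11.5, 11.7 and 12.5 CPM at 0 h (3.64 ± 0.33).

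The list of small heat shock proteins was divided. HSP17.6A, a cytosolic chaperone of seed maturation, had 16.9, 14.9 and 14.7 CPM in seedlings, against 6295, 6330 and 6409 CPM in dry seeds (-9.90 ± 0.59), and the seed factor HSFA9, a known activator of such genes, had 0.649, 0.406 and 0.354 CPM in seedlings, against 249, 255 and 252 CPM in dry seeds (-10.29 ± 0.60). Over the list 16 of 34 tested members fell and 11 rose, and its median of -0.70 became 0.53 under library size. The list took 0.0683% of reads at 48 h SL and 0.794% at 0 h. HSP17.6A alone took 0.634% of reads at 0 h but 0.00155% at 48 h SL. There AT4G02450 led the list, with 29.5% of its level per exon length. That gene is a co-chaperone of the p23 type and not a small heat shock protein. The counts and the median of the list are thus not those of small heat shock proteins alone.

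Of the sugars that accompany drying, the galactinol and raffinose genes had 6 of 10 tested members lower and 4 higher (median -3.93). Among all genes tested 33.3% were lower and 45.8% higher. GolS2, a galactinol synthase, had 0.811, 0.616 and 0.642 CPM at 48 h SL, against 539, 510 and 524 CPM at 0 h (-10.79 ± 0.53), and was among the 10 largest falls of all genes with at least 50 CPM. Others of those 10 were AT1G32710, a cytochrome c oxidase VIb subunit (-11.25 ± 0.35), XTH25, a xyloglucan endotransglucosylase (-10.99 ± 0.67), the seed maturation protein AT3G22490 (-10.92 ± 0.59), BGLU19, a beta-glucosidase (-10.77 ± 0.65), and AT1G14940, of the polyketide cyclase and lipid transport family (-10.68 ± 0.41). XTH25 had 8.95, 6.19 and 5.71 CPM in seedlings, against 6034, 5886 and 6126 CPM in dry seeds. XTH25 alone took 0.602% of dry seed reads, and its family of 29 tested xyloglucan endotransglucosylases took 0.367% of reads at 48 h SL and 0.614% at 0 h although 25 of them rose.

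Dormancy and hormone genes changed by exchange of members more than as blocks. Among the regulators of maturation and dormancy 13 of 22 fell and 4 rose (median -1.99). DOG1, the dormancy gene delay of germination 1, had 1.64, 0.962 and 1.05 CPM at 48 h SL, against 54.0, 55.0 and 51.8 CPM at 0 h (-6.69 ± 0.43). ABI5, the bZIP factor of abscisic acid response in seeds, had 6.77, 7.23 and 8.95 CPM in seedlings, against 341, 335 and 317 CPM in dry seeds (-6.66 ± 0.19), and SOM, a repressor of germination in the dark, had 2.85, 2.26 and 4.35 CPM in seedlings, against 358, 312 and 321 CPM in dry seeds (-7.93 ± 0.32). All 3 were lower in each seedling library.

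In abscisic acid signalling 18 of 29 tested members fell and 11 rose (median -1.59), against 33.3% and 45.8% of all genes tested. AHG1, a seed protein phosphatase 2C, fell by 8.91 ± 0.29 on the log2 scale and PYL12, a receptor, by 7.19 ± 0.36. In the other direction the receptors PYL1 and PYL4 rose by 4.78 ± 0.30 and 4.70 ± 0.42, and ABF3, a bZIP factor of vegetative abscisic acid response, had 42.5, 44.9 and 43.7 CPM at 48 h SL and 0.163, 0.393 and 0.217 CPM at 0 h (6.20 ± 0.44). The seed synthesis genes NCED6 and NCED9 fell too, with at most 0.0590 and 0.265 CPM at 48 h SL and at most 1.96 and 3.03 CPM at 0 h. Of the abscisic acid hydroxylases, which inactivate the hormone, CYP707A2 was lower in seedlings, with 9.42, 9.77 and 10.7 CPM at 48 h SL and 27.8, 29.4 and 29.0 CPM at 0 h (-2.75 ± 0.15). CYP707A1 was higher, with 78.2, 92.5 and 84.1 CPM at 48 h SL and 1.05, 1.39 and 1.18 CPM at 0 h (4.91 ± 0.41).

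Gibberellin genes showed the same exchange. The receptors GID1A and GID1C fell by 3.63 ± 0.17 and 2.88 ± 0.16 on the log2 scale, whereas the receptor GID1B rose, with 16.5, 14.7 and 13.4 CPM at 48 h SL and 0.523, 0.393 and 0.241 CPM at 0 h (4.08 ± 0.30). GID1A had 22.6, 21.9 and 19.9 CPM in seedlings, against 114, 114 and 111 CPM in dry seeds. Among the DELLA repressors RGL1 rose by 5.59 ± 0.43 and RGL3 fell by 2.37 ± 0.19. The gibberellin 20-oxidase GA20OX5 and the gibberellin 2-oxidase ATGA2OX1, the first a synthesis enzyme and the other an inactivating one, were gained, at least 53.4-fold and 40.5-fold higher in CPM. Of the gibberellin-regulated GASA peptides, GASA2 had 0.885, 0.436 and 0.564 CPM at 48 h SL, against 407, 438 and 435 CPM at 0 h (-10.63 ± 0.61), and GASA4 had 504, 546 and 554 CPM at 48 h SL, against 8.11, 5.78 and 0.989 CPM at 0 h (5.58 ± 0.61). The third 0 h library was the lowest for GASA4, as it was for the mesophyll markers.

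**Figure D3:**
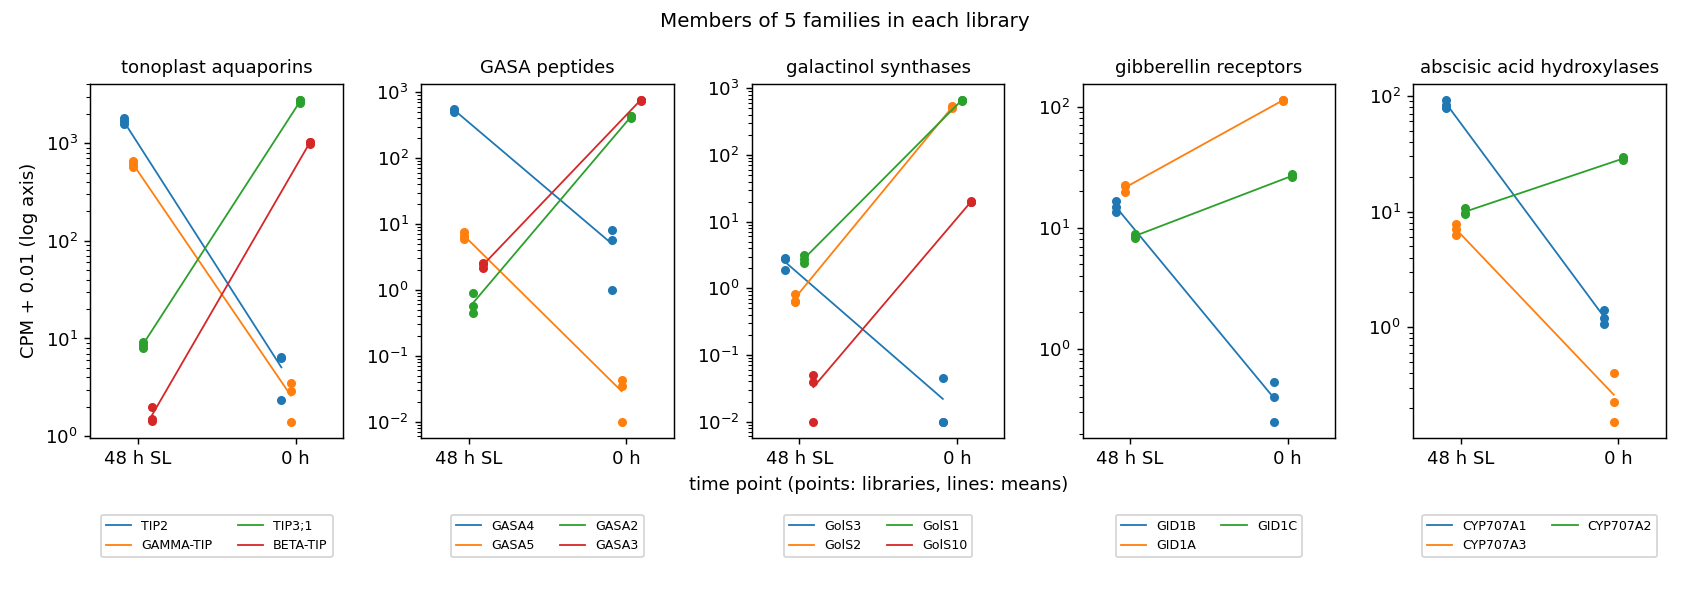
Level of named members of 5 families in each library, in CPM plus 0.01 on a log y axis, with 48 h SL left of 0 h in each panel. Points are libraries and lines join the means of 3 libraries. In every panel lines cross or run in opposite directions, for example TIP2 with GAMMA-TIP against TIP3;1 with BETA-TIP.

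Tonoplast aquaporins, the water channels of the vacuole, exchanged members by the same pattern. TIP3;1, known from the vacuoles that store protein, had 9.12, 7.94 and 8.60 CPM in seedlings, against 2565, 2755 and 2781 CPM in dry seeds (-9.53 ± 0.49), and BETA-TIP had 1.99, 1.41 and 1.49 CPM in seedlings, against 988, 1029 and 1018 CPM in dry seeds (-10.50 ± 0.69). TIP2 (AT3G26520) had 1677, 1804 and 1563 CPM in seedlings, against 6.50, 6.32 and 2.34 CPM in dry seeds (7.19 ± 0.78), and GAMMA-TIP had 605, 661 and 563 CPM in seedlings, against 2.91, 3.46 and 1.40 CPM in dry seeds (6.69 ± 0.69). The share of the list in the reads changed less, at 0.247% in seedlings and 0.372% in dry seeds. Plasma membrane aquaporins did not exchange in that way, as 12 of 13 tested members rose and none was called lower (median 4.85).

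Reserve mobilisation genes were abundant in seedling and dry seed alike. ICL, isocitrate lyase of the glyoxylate cycle, had 7253, 8555 and 8546 CPM at 48 h SL, against 7532, 7839 and 7617 CPM at 0 h, and the groups overlapped. Its fold change of -1.14 ± 0.33 (adjusted p = 0.00218) with TMM became 0.08 under library size. MLS, malate synthase, had 2072, 2289 and 2253 CPM in seedlings, against 2310, 2298 and 2231 CPM in dry seeds, and PKT3, the peroxisomal thiolase of fatty acid breakdown, had 1652, 1837 and 1764 CPM in seedlings, against 1684, 1716 and 1694 CPM in dry seeds. These genes held their share of the reads, whereas 73 of the 104 genes of at least 1000 CPM at 0 h were under 1% of that level in the first 48 h SL library and 74 in each of the others. PCK1, the phosphoenolpyruvate carboxykinase that leads into gluconeogenesis, had 1539, 1725 and 1733 CPM at 48 h SL and 1100, 1068 and 1036 CPM at 0 h, a fold change of -0.58 ± 0.18 with TMM and 0.64 under library size.

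Over the glyoxylate and gluconeogenesis list 2 of 10 rose and 6 fell, with a median of -0.63 that became 0.59 under library size, and its genes took 1.5% of reads at 48 h SL, 2.89% at 24 h SL and 1.28% at 0 h. Seed oil lipolysis and beta-oxidation had 5 of 17 higher and 7 lower, against 45.8% and 33.3% of all genes tested. The median of that list was -0.17 and became 1.06 under library size. Other isoforms rose here. The thiolase KAT5 had 205, 165 and 144 CPM at 48 h SL and 1.63, 0.892 and 0.796 CPM at 0 h (6.06 ± 0.40), and the malate dehydrogenase PMDH2 had 142, 124 and 137 CPM at 48 h SL and 2.03, 1.93 and 0.965 CPM at 0 h (5.16 ± 0.39), while PMDH1 had 504, 555 and 538 CPM at 48 h SL and 362, 366 and 365 CPM at 0 h (-0.68 ± 0.15, and 0.55 under library size).

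Photosynthesis genes of the nucleus rose nearly as a whole. Of the antenna proteins that gather light 25 of 26 rose and 1 fell (median 5.80), of the photosystem subunits 34 of 42 rose and 4 fell (median 4.08), of the Calvin cycle enzymes 10 of 10 rose (median 6.00) and of the chlorophyll synthesis enzymes 23 of 24 rose (median 3.39), against 45.8% of all genes. RBCS1A, a small subunit of Rubisco, had 6259, 5202 and 5851 CPM at 48 h SL, against 50.8, 47.9 and 20.7 CPM at 0 h (5.98 ± 0.52). CAB1, a light-harvesting protein with near-identical copies, had 3101, 2826 and 2967 CPM in seedlings, against 15.4, 15.5 and 8.32 CPM in dry seeds (6.62 ± 0.67), and PORB, the light-dependent protochlorophyllide reductase, had 1036, 1014 and 1144 CPM in seedlings, against 4.45, 4.57 and 1.83 CPM in dry seeds (7.01 ± 0.66). In all 3 the groups were far apart, and the third 0 h library was the lowest. Among the members that went against their lists were AT1G76570, an antenna family protein (-2.96 ± 0.25), and HEMA2, a glutamyl-tRNA reductase (-1.55 ± 0.14, and -0.32 and not called under library size).

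PSAF, a subunit of photosystem I, was named after its values were seen, to show a photosynthesis promoter. It had 764, 634 and 696 CPM at 48 h SL, against 4.18, 4.10 and 2.07 CPM at 0 h (6.46 ± 0.52). Its window at chr1:11216092-11216391 on the minus strand of TAIR10.1 holds 3 I-box cores GATAAG, an element known from light-regulated genes, and 1 evening element core AATATCT, both in capitals.
PSAF: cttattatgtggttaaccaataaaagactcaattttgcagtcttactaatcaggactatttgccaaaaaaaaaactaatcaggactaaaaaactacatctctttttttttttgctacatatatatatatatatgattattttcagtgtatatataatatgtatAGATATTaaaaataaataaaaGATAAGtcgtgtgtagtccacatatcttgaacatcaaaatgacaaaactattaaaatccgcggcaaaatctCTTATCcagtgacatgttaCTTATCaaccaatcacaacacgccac

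Transcripts of the organelle genomes ran the other way in these libraries, which the labels give as polyA-selected. Of the plastid genome genes 82 of 97 tested fell and none rose (median -3.35), and of the mitochondrial genome genes all 45 tested fell (median -5.61). Plastid reads made up 0.00474% to 0.0187% of the library at 48 h SL and 0.0382% to 0.0488% at 0 h, and ribosomal RNA reads 0.0188% to 0.210% at 48 h SL and 0.550% to 0.655% at 0 h. Organelle transcripts carry polyA tails mainly as a mark for decay, and how far a selection step set these values was not tested.

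Translation and DNA replication genes rose on balance, and the ribosomal protein share of reads was higher in the middle of the course than at its end. Of 279 tested ribosomal protein genes not annotated as organellar 155 rose and 48 fell (median 0.76), and the list took 6.98% ± 0.299 of reads at 48 h SL and 2.00% ± 0.113 at 0 h, with 20.8% at 6 h SL between them. AT5G20290, a ribosomal protein S8e family gene named after its values were seen, had 1187, 1246 and 1350 CPM at 48 h SL and 228, 250 and 206 CPM at 0 h (1.25 ± 0.17). It is shown because its window, at chr5:6853057-6853356 on the minus strand of TAIR10.1, holds 2 telo-box cores AACCCTA and 2 site II cores TGGGCC in capitals, a pair of elements known from ribosomal protein genes of plants.
AT5G20290: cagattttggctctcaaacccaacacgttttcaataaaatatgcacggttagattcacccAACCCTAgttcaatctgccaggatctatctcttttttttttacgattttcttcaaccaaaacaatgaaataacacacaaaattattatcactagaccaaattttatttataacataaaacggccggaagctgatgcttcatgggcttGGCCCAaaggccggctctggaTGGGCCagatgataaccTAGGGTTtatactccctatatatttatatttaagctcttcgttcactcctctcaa

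Cell division genes had few reads in dry seed. Of 14 tested mitotic cyclins and CDKB kinases 13 rose (median 5.33) and 3 were gained. CYCB2;2 had 19.2, 17.8 and 21.3 CPM in seedlings, against 0.0327, 0.0714 and 0.0241 CPM in dry seeds, at least 210-fold higher in CPM, and CYCB1;3 was at least 200-fold higher in CPM. Replication genes of the MCM and origin list rose in 21 of 25 cases (median 3.69), among them PCNA1, the replication clamp, with 44.6, 40 and 44.1 CPM in seedlings and 0.883, 0.535 and 0.0724 CPM in dry seeds (5.30 ± 0.54). RNR2A, a ribonucleotide reductase small subunit, fell, with 35.4, 34 and 38 CPM in seedlings and 106, 110 and 104 CPM in dry seeds (-2.80 ± 0.20). Core histones lay near the shares of all genes tested, 45.8% higher and 33.3% lower. Of 44 tested 21 were higher (47.7%) and 12 lower (27.3%), with a median of 0.90. HTA11, an H2A, rose by 4.29 ± 0.35, and AT1G08170, a histone superfamily gene, had 0.737, 0.451 and 0.511 CPM in seedlings, against 310, 331 and 314 CPM in dry seeds (-10.35 ± 0.46).

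DNA methylation genes had 10 of 16 members higher and 2 lower (median 1.87), against 45.8% and 33.3% of all genes tested. CMT2 and CMT3, chromomethylases that methylate outside CG sites, had 40.9, 36.9 and 39.8 CPM and 65.2, 54.8 and 65.2 CPM at 48 h SL, against at most 0.392 and 1.37 CPM at 0 h (6.29 ± 0.48 and 4.90 ± 0.36). DML1, a DNA demethylase, had 12.6, 12.0 and 12.8 CPM in seedlings, against 65.1, 64.7 and 59.3 CPM in dry seeds (-3.56 ± 0.21), and DRM2, the methyltransferase of RNA-directed methylation, fell by 1.93 ± 0.20 on the log2 scale.

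**Figure D4:**
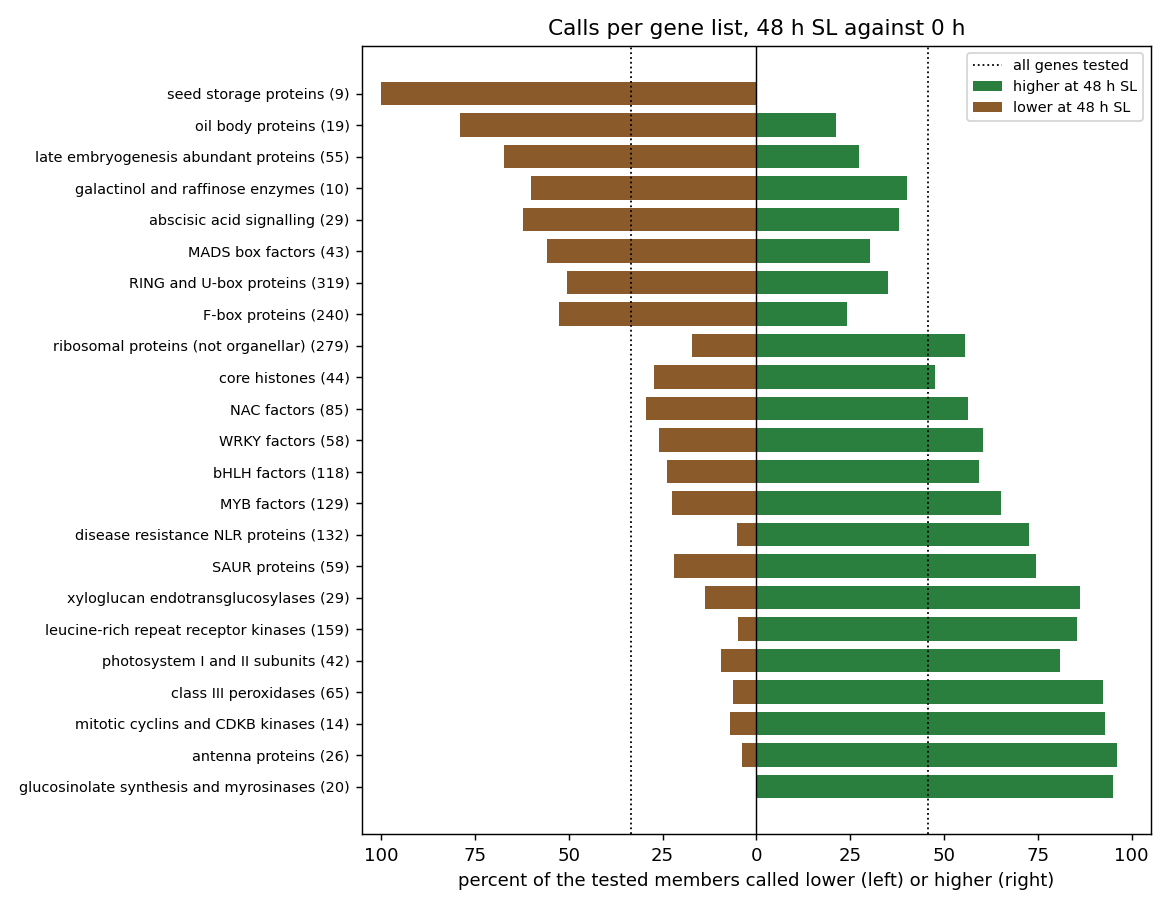
Percent of tested members called lower (brown, to the left) or higher (green, to the right) at 48 h SL for 23 gene lists, with the number tested in brackets. Dotted lines mark the shares of all genes tested, 33.3% lower and 45.8% higher. Storage proteins fill the left side and glucosinolate, antenna, cyclin and peroxidase lists the right side, and F-box and RING lists lie near or beyond the left line.

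Cell wall families rose broadly, where 45.8% of all genes tested were higher and 33.3% lower. Of the class III peroxidases, secreted enzymes that cross-link wall polymers, 60 of 65 rose and 12 were gained (median 5.52), with 0.559% of reads at 48 h SL and 0.0108% at 0 h. Extensins and proline-rich proteins rose in 42 of 53 cases (median 6.26), arabinogalactan proteins in 38 of 47 (median 5.16) and expansins in 19 of 28 (median 3.64). Laccases rose in 13 of 16 cases (median 4.48) and cellulose synthases in 8 of 9 (median 3.15). GDSL lipases, which are not a wall family, rose in 54 of 69 cases (median 4.18). The root hair genes EXPA7 and EXPA18, expansins that loosen the wall, had 103, 127 and 108 CPM and 125, 163 and 143 CPM in seedlings, against 0.360, 0.214 and 0.145 CPM and 0.621, 0.321 and 0.0965 CPM in dry seeds (7.69 ± 0.62 and 7.55 ± 0.71). XTH14 had 538, 667 and 564 CPM in seedlings, against 1.24, 1.75 and 0.651 CPM in dry seeds (7.74 ± 0.81). RHD2, the NADPH oxidase needed for root hair growth, had 53.9, 62.1 and 57.2 CPM in seedlings, against 0.163, 0.107 and 0.0724 CPM in dry seeds (7.78 ± 0.60). Each of these stood more than 100-fold above dry seed in every library.

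Among cellulose synthases the primary wall enzyme CESA1 had 590, 621 and 584 CPM at 48 h SL and 31.0, 28.8 and 30.2 CPM at 0 h (3.09 ± 0.28). CESA4 and IRX1, which make the secondary wall of xylem, were gained, at least 179-fold and 101-fold higher in CPM, and so was the lignin laccase LAC11, at least 248-fold higher in CPM. Pectin genes were less uniform. Pectin methylesterases and their inhibitors had 44 of 79 higher, 28 lower, 11 gained and 6 lost (median 1.44), and pectin lyase-like proteins had 54 of 82 higher, 19 lower, 18 gained and 7 lost (median 2.81), where 45.8% of all genes tested were higher, 33.3% lower, 5.99% gained and 0.400% lost.

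Some genes of nutrient transport and specialised metabolism were among those that rose. IRT2, an iron transporter of the root, had 45.1, 57.1 and 49.3 CPM at 48 h SL, against 0.0654, 0.107 and 0.0482 CPM at 0 h, at least 546-fold higher in CPM, and held the most reads of the gained genes. PHT1;1, a phosphate transporter, had 60.4, 67.7 and 55.8 CPM in seedlings, against 0.163, 0.0714 and 0.121 CPM in dry seeds (7.75 ± 0.62). Phosphate, sulphate and ammonium transporters rose in 24 of 32 cases and fell in 6 (median 3.23). PHT3;1 alone made up 58.0% of that list's level per exon length at 48 h SL. Nitrate, peptide and NPF transporters had 18 of 34 higher and 12 lower, nearer the 45.8% and 33.3% of all genes tested. Their share of reads was 0.0950% at 48 h SL and 0.196% at 0 h. Glucosinolate and myrosinase genes rose in 19 of 20 cases (median 5.37), with CYP83A1 at 43.2, 34.7 and 27.2 CPM at 48 h SL and 0.0327, 0.143 and 0.0482 CPM at 0 h (7.69 ± 0.54).

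The most abundant transcript of the seedling per exon length was PYK10, a beta-glucosidase of endoplasmic reticulum bodies, with 12628, 12996 and 11609 CPM at 48 h SL, against 75.3, 75.7 and 31.5 CPM at 0 h (6.47 ± 0.69). Its partner AT3G16420, PYK10-binding protein 1, had 3059, 3313 and 3033 CPM in seedlings, against 22.0, 20.5 and 7.65 CPM in dry seeds (6.35 ± 0.67). The jacalin lectin list to which the partner belongs had 7 of 9 higher and 1 lower (median 6.58). Flavonoid genes rose in 12 of 14 cases (median 5.95). LDOX, of anthocyanin synthesis, had 190, 137 and 124 CPM in seedlings, against 0.621, 0.749 and 0.555 CPM in dry seeds (6.66 ± 0.52), and the anthocyanin regulator AT1G56650 was gained, at least 293-fold higher in CPM. The flavonoid gene that fell was BAN, anthocyanidin reductase of the seed coat, with 0.0147, 0.0301 and 0.0131 CPM in seedlings, against 0.556, 0.464 and 0.482 CPM in dry seeds (adjusted p = 1.74e-08).

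Transcription factor families differed in direction. MYB factors had 84 of 129 higher, 29 lower and 31 gained (median 3.23), bHLH factors 70 of 118 higher, 28 lower and 22 gained (median 2.93), NAC factors 48 of 85 higher and 25 lower (median 2.12) and WRKY factors 35 of 58 higher and 15 lower (median 1.53), against 45.8% higher and 33.3% lower of all genes tested. ERF and AP2 factors lay near those shares, with 36 of 78 higher (46.2%) and 25 lower (32.1%). MADS box factors went the other way, with 13 of 43 higher and 24 lower (median -1.49). Shares of reads did not always follow these counts, given here for 48 h SL and then 0 h. The NAC list took 0.134% and 0.238%, and ERF and AP2 factors 0.0904% and 0.286%. AT4G10480 made up 37.3% of the NAC list's level per exon length at 48 h SL. It is a subunit of the nascent polypeptide-associated complex and not a transcription factor. The NAC counts and shares are thus not those of the factors alone. The WRKY shares of 0.0794% and 0.0822% overlapped between groups. MYB factors took 0.181% and 0.108%, bHLH factors 0.192% and 0.0993%, and MADS box factors 0.0217% and 0.0441%. WRKY14 had 14.5, 17.2 and 15.1 CPM in seedlings, against 0, 0.0357 and 0 CPM in dry seeds, at least 169-fold higher in CPM, and the MYB-like factor AT3G25790 had no read in any 0 h library and was at least 83.5-fold higher in CPM. On the seed side AGL67, a MADS box factor, had 0.546, 0.496 and 0.708 CPM in seedlings, against 136, 130 and 129 CPM in dry seeds (-9.03 ± 0.37), NAC060 had 0.929, 0.661 and 0.826 CPM in seedlings, against 149, 147 and 150 CPM in dry seeds (-8.75 ± 0.23), and WOX2, a homeobox factor of the early embryo, had 0.177, 0.301 and 0.288 CPM in seedlings, against 56.3, 51.3 and 54.0 CPM in dry seeds (-8.92 ± 0.38). None of these groups overlapped.

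Signalling families differed in direction, read against 45.8% higher and 33.3% lower of all genes tested. PP2C phosphatases, which reverse the work of kinases, had 27 of 61 higher and 27 lower (median 0.12). Leucine-rich repeat receptor kinases rose in 136 of 159 cases and fell in 8 (median 3.79), disease resistance NLR proteins rose in 96 of 132 and fell in 7 (median 1.96), SAUR proteins, small auxin-induced growth regulators, rose in 44 of 59 and fell in 13 (median 4.10), and Aux/IAA repressors rose in 23 of 30 and fell in 2 (median 3.12). IAA19 was gained, at least 78.2-fold higher in CPM, and IAA30 had 0.693, 0.526 and 0.655 CPM at 48 h SL, against 5.36, 6.50 and 5.60 CPM at 0 h (-4.43 ± 0.26). The SAUR share of reads was level, at 0.0297% at 48 h SL and 0.0293% at 0 h, with overlapping groups. The shares of leucine-rich repeat receptor kinases, NLR proteins and Aux/IAA repressors were higher at 48 h SL. Protein turnover families leaned to the seed. F-box proteins had 58 of 240 higher and 126 lower, with a median of -0.90 that became 0.33 under library size, and RING and U-box proteins had 112 of 319 higher and 161 lower, with a median of -0.66 that became 0.57. Clock genes had 2 of 16 higher and 11 lower, with a median of -1.18 that became 0.05. The 2 that rose were the morning factors LHY, with 74.7, 76.6 and 77.6 CPM in seedlings and 2.71, 2.93 and 1.47 CPM in dry seeds (3.81 ± 0.33), and CCA1 (2.25 ± 0.22), while PRR9 and PRR7, which repress them, fell by 4.77 ± 0.28 and 3.02 ± 0.21. The hour of collection is a part of that value that was not tested.

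Genes were called gained where every 48 h SL library had at least 1 CPM and every 0 h library at most 3 reads, and lost in the reverse case. There were 1390 gained genes (5.99% of those tested) and 93 lost genes (0.400%), and they were a small part of the RNA, gained genes with 0.736% of reads at 48 h SL and lost genes with 0.0381% at 0 h. The depth was higher at 48 h SL, which makes a gene harder to count as lost. With all libraries thinned to the smallest total the counts were 1479 gained and 168 lost. They also moved with the limits, to 625 gained and 43 lost with at most 1 read, 2892 and 201 with at most 10 reads, and 428 and 18 with at least 5 CPM. Of the gained genes 235 (16.9%) overlapped another gene and of the lost 19 (20.4%), against 31.7% of all genes tested, and reads of overlapping genes cannot be assigned with certainty. After IRT2 the gained genes with the most reads included SBT4.12, a subtilase with 48.4, 47.1 and 38.5 CPM at 48 h SL and at least 483-fold higher in CPM, CYP96A9, a cytochrome P450 at least 310-fold higher, the ERF factor gene tny at least 301-fold higher, and XTH20 at least 275-fold higher, all in CPM.

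Some of the lost genes are known from pollen. VGD1 and VGDH1, neighbouring near-identical pectin methylesterase genes of pollen tubes, had at most 0.0451 and 0.0295 CPM at 48 h SL, against 14.2, 15.7 and 13.9 CPM and 14.0, 14.2 and 13.2 CPM at 0 h, at least 340-fold and 321-fold lower in CPM. RALFL4, a peptide of pollen tube integrity, was at least 277-fold lower in CPM. PGA4, a pollen polygalacturonase that was lower but not counted as lost, had 0.133, 0.0301 and 0.0655 CPM at 48 h SL, against 44.8, 44.6 and 44.1 CPM at 0 h (-10.35 ± 0.73). The defining pollen markers VGD1 and PPME1 summed to 0.0737, 0.0752 and 0.0262 CPM at 48 h SL, 22.0, 25.4 and 22.6 CPM at 0 h and 65.9, 66.4 and 69.7 CPM at harvest. The part of pollen carried with the seed in these values was not tested. Of the 93 lost genes 83 were already at 1 CPM or more in all libraries at harvest, and none of the 1390 gained genes was.

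The time course placed these changes. Turns were taken for genes at least 2-fold higher or lower by TMM, from their mean CPM plus 0.5 on the log2 scale. The turn was the first time point from which the mean stayed past the midpoint between its 0 h and 48 h SL levels. Of 9575 such higher genes 0.125% turned at 1 h S, 4.38% at 12 h S, 14.9% at 48 h S, 4.36% at 1 h SL, 13.6% at 6 h SL, 13.8% at 12 h SL, 28.7% at 24 h SL and 20.1% at 48 h SL. Of 6440 lower genes 8.74% turned at 1 h S, 9.80% at 12 h S, 14.9% at 48 h S, 3.17% at 1 h SL, 10.2% at 6 h SL, 8.28% at 12 h SL, 17.1% at 24 h SL and 27.8% at 48 h SL. Gained genes came late, 34.0% at 24 h SL and 51.6% at 48 h SL, and lost genes went early, 22.6% at 12 h S and 49.5% at 48 h S. The levels used for turns carry no TMM scaling, and the scalings differ by 1.22 (log2) for the median gene. A gene with a small fall by TMM can thus be level or higher in CPM. Under library size alone 4135 genes were called lower, so the percentages of the 6440 lower genes are uncertain.

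**Figure D5:**
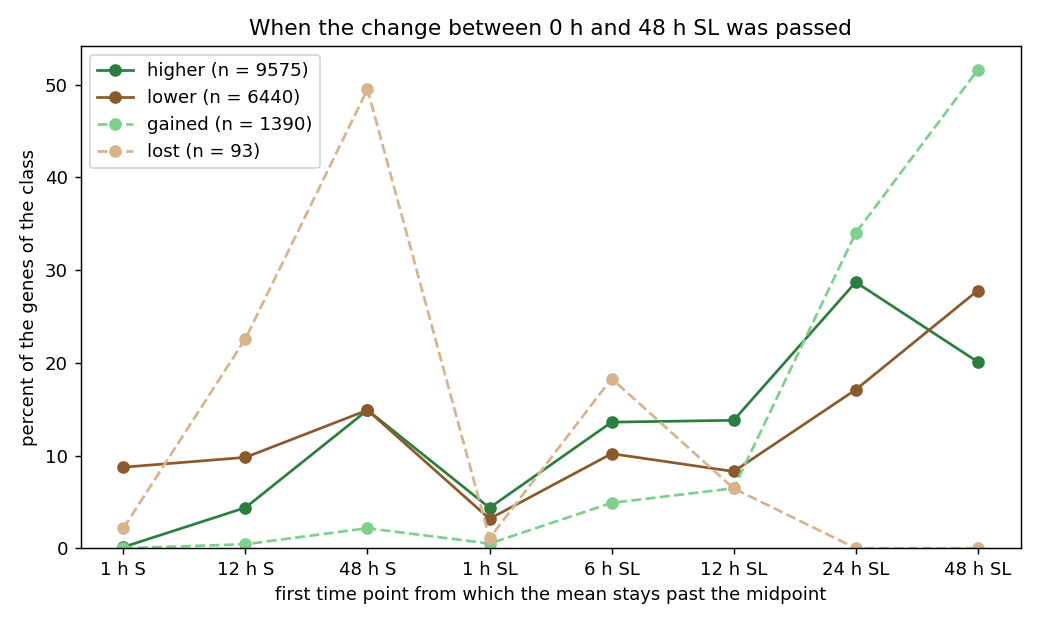
Percent of the genes of each class that turned at each time point, from 1 h S to 48 h SL along the x axis. Solid lines are the 9575 higher and 6440 lower genes with a change of at least 2-fold, and dashed lines the 1390 gained and 93 lost genes. Gained genes peak at 48 h SL (51.6%) and lost genes at 48 h S (49.5%). Turns were read from CPM with no TMM scaling.

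Families differed in when they turned. All 13 risen mitotic cyclins and CDKB kinases and all 7 xylem markers turned at 24 h SL, as did 19 of 25 antenna genes, while 78 of 110 ribosomal protein genes turned at 48 h S, before any light, and 12 of 20 replication genes and 11 of 21 histone genes at 6 h SL. Storage genes turned at 12 h SL in 7 of 9 cases. Their share of reads was 11.9% at 0 h, 8.50% at 12 h S, 3.03% at 48 h S, 1.24% at 6 h SL and 0.0463% at 48 h SL. The change was not always in a straight line. Of the lower genes 1822 (28.3%) and of the higher genes 877 (9.16%) were more than 2-fold above both ends at a time point between. So were 65 of the 110 ribosomal protein genes. These peaks were read from CPM with no TMM scaling, as the turns were. The 1 h S means include replicate 2, which stood apart, and replicate 3, which was raised less.

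Classes of RNA differed as well. Protein-coding genes had 10286 of 21407 higher and 7017 lower (median 0.55), long noncoding RNAs 86 of 555 higher and 180 lower (median -0.52), small nucleolar RNAs 11 of 188 higher and 66 lower, and small nuclear RNAs 0 of 22 higher and 12 lower. The median of the long noncoding RNAs lies within the 1.22 by which the scalings differ. Small RNAs without a polyA tail are poorly held by a polyA selection step, whose part was not tested. Gained and lost genes were simpler in structure, with a single exon in 30.5% of gained and 31.2% of lost protein-coding genes, against 16.7% of all tested, and median exon lengths of 1551 bases in gained, 1339 in lost and 1738 in all tested genes. Of 1338 protein-coding gained genes 278 (20.8%) lay next to another gained gene, while gained genes made up 4.88% of all protein-coding genes. A gene can have a neighbour on each side, so these shares are not like for like. The share to be expected without clustering is above 4.88% and was not computed. The longest run held 6 gained genes at chr1:19242654-19274168, among them the leucine-rich repeat kinase genes AT1G51830 and AT1G51860 and RHS6. Such neighbours share sequence, so reads may be split among them.

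The promoter windows of the families differed in the letters they held. Motifs were searched as exact letters on both strands of 300 bases, the ABRE core and the G-box can overlap, and a match describes letters only. Of the 27425 windows of protein-coding genes 4.34% held the ABRE core ACGTGTC, 9.74% the RY core CATGCA, 7.68% the G-box CACGTG, 14.7% the I-box core GATAAG, 15.4% the site II core TGGGCC and 8.87% the telo-box core AACCCTA. The RY core was in 88.9% of the 9 storage genes and 57.1% of the 28 oil body genes, the ABRE core in 36.7% of the 60 LEA genes, the I-box core in 47.6% of the 42 photosystem genes and 29.6% of the 27 antenna genes, and the site II and telo-box cores in 56.4% and 42.6% of the 298 ribosomal protein genes. Over all genes at least 8-fold lower the ABRE core was in 11.4%, the G-box in 15.9% and the RY core in 15.0%, and over all genes at least 8-fold higher the ABRE core was in 3.63%, the G-box in 7.15% and the RY core in 12.2%. In gained genes the RY core was in 13.6%. The ABRE core was also in 26.2% of the photosystem genes, which rose, and the RY core in 28.8% of the 73 class III peroxidase genes, of which most rose, so neither was kept to the genes that fell.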

How the data were processed

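The labels give TruSeq total RNA libraries with polyA selection and no strand, and the study's methods name the kit without that step. The authors trimmed reads with Trim Galore 0.4.2, aligned them to TAIR10 with HISAT2 2.0.5 and counted them per gene with featureCounts 1.5.1 over Araport11 and 881 loci they assembled. Salmon 0.7.2, sleuth 0.28.1 and DESeq2 1.10.1 are also named in the submitters' processing notes. The deposited values are raw counts of reads per gene, 1 column per library. How reads with several locations were counted is not given in the sources used here. Tables of isoform estimates and of the authors' own tests over the time course were not used. From these counts, edgeR 4.0.16 (R 4.3.3) was fitted to all 30 libraries with TMM factors, filterByExpr with a minimum count of 10, the quasi-likelihood test of 48 h SL against 0 h and Benjamini-Hochberg adjustment over all genes tested. A call is an adjusted p under 0.01, and SE is the fold change divided by the square root of F. CPM is the count divided by the library total, times 1000000. A gained gene had at least 1 CPM in each 48 h SL library and at most 3 reads in each 0 h library, and "at least N-fold" is in CPM against 3 reads per library, with no TMM scaling. The scripts were tested on simulated data. The members and lists were chosen with earlier results of these data known. Named genes were the 10 largest rises and falls with at least 50 CPM and separate groups, the 10 gained and 10 lost with most reads, the 10 most abundant at each time, and the leading and most changed members of each list. Gene names came from RefSeq by gene ID. Alternatives were other scalings and tests, no filter, the 6 libraries alone, a replicate block, each library left out, and other limits for gained genes. Leaving out 1 h S replicate 2 was chosen after seeing the data.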

Additional observations from a re-analysis of the deposited data

How the results depend on the processing

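The direction of the comparison as a whole kept under every scaling and test run, but counts moved with the choices. Under library size alone 4135 genes were lower. Gained genes numbered 625 with a limit of 1 read, 2892 with 10 reads and 428 at a level of 5 CPM, and lost genes 43, 201 and 18, and 168 lost genes were counted with reads thinned to the smallest total. Under library size alone the medians of 10 lists reversed, to 0.53 for small heat shock proteins, 0.59 for the glyoxylate cycle, 1.06 for lipolysis, 0.33 for F-box proteins, 0.57 for RING and U-box proteins, 0.05 for clock genes, 0.22 for defensins, 0.76 for RNA-binding RRM proteins, 1.19 for SWEET and monosaccharide transporters and 0.32 for seed coat markers, as did ICL (0.08), PCK1 (0.64), PMDH1 (0.55) and PKT3 (0.04), and this scaling moves every fold change by its construction. DESeq2's Wald test (version 1.42.0) called 10105 higher and 8451 lower. The 6 libraries alone gave 10968 higher and 8719 lower. Leaving out single libraries gave 10111 to 10650 higher, 7484 to 8075 lower, 1390 to 1595 gained and 93 to 112 lost genes. With the replicate block 10595 genes were higher and 7715 lower, 1390 gained and 93 lost, and the numbers did not pair the libraries, since deviations of same-numbered libraries correlated at -0.013, 0.01 and -0.023. Depth limits what can be called lost or gained, as 3 reads are on average 0.0429 CPM at 48 h SL and 0.0925 CPM at 0 h.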

Other observations

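Gene families outside the lists, grouped by their RefSeq product name after the values had been seen, held further gains and losses, given here as counts with no test. The cysteine/histidine-rich C1 domain family, zinc-binding proteins of largely unknown role in plants, had 98 of 110 tested members (89.1%) higher, 5 lower and 49 gained at 48 h SL (median 5.69). CLAVATA3/ESR-related peptides, which signal in meristems, were higher in 19 of 23 cases and lower in 0, ovate family growth repressors in 14 of 16 and 0, and NPH3-like proteins, of blue light and auxin responses, in 24 of 29 and 2. Some families leaned to the dry seed. Ubiquitin-like proteins had 2 of 25 higher and 20 lower (median -1.95), and D111/G-patch proteins 0 of 10 higher and 10 lower (median -1.41). Cystatin/monellin proteins had 0 of 11 higher and 10 lower (median -2.70). Among all genes tested 45.8% were higher, 33.3% lower and 5.99% gained. Library size alone shifted the median gene by 1.22 (log2) upward, and how far these leans hold under it was not tested.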
